A study of Rattus norvegicus with 10 samples.

Results

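Translation initiation and elongation factors are the proteins that bring a ribosome to the start of an mRNA and then move it along the coding sequence. In initiation, eIF2 brings the first tRNA to the small ribosomal subunit, eIF3 holds that subunit complex together, and the eIF4 factors bind the cap of the mRNA and unwind its leader. In elongation, eEF1A delivers each further tRNA, the eEF1B subunits reload eEF1A with GTP, and eEF2 shifts the ribosome by a codon. Growing cells make many of these factors, and cartilage cells depend on them to build a matrix rich in secreted protein. The genes described here are the rows of the deposited expression table whose symbol begins with Eif1 to Eif6, Eef1 or Eef2, with the eIF2 alpha kinases left out. That choice used names and no measured values, and it held 54 of the 10184 rows.

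RNA was taken from RCS cells, derived from a rat chondrosarcoma and used as a model of cartilage cells, at 48 h after seeding and with no treatment. There were 5 libraries of ARSL knockout (KO) cells, in which the gene of arylsulfatase L, a Golgi enzyme, was knocked out, and 5 of wild-type (WT) RCS cells, all described as biological replicates. Whether the knockout line is a single clone is not stated in the labels, and p-values measure the spread between these libraries. A difference between genotypes and another difference between the lines cannot be told apart. The targeted gene is not analysed here.

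Reads over the listed genes numbered 2065594 to 2453015 per KO library and 2118490 to 2591819 per WT library. The first principal component of the tested genes held 51.1% of the variance and set libraries apart within the WT group, with scores of 28.0 in WT 3 and 26.8 in WT 4, against -9.71 to -2.96 in the other WT libraries. ARSL KO 4 scored 7.91, against -15.04 to -5.91 in the other KO libraries. The 10 listed chondrocyte markers, among them Acan and Col2a1, summed to 38880 to 50196 normalised reads in KO libraries and 39752 to 64215 in WT libraries, and none was at 0 in any library. The 3 listed fibroblast markers summed to 43.0 to 90.8 normalised reads in KO libraries and 55.8 to 147 in WT libraries, with 1 of them at 0 in at least 1 library. In bulk RNA, fewer cells of a type and less RNA per cell cannot be told apart.

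Start-site windows are shown for 8 factors that were higher or lower in both WT 3 and WT 4 than in the other WT libraries. They were picked by hand from 31 such lower and 6 such higher factors, and leave out Eef1d, the lowest of all. Pyrimidine runs were marked because the mRNAs of many translation factors are known to begin with one, unbroken. This is the terminal oligopyrimidine tract, through which growth signals control their translation. Each window holds the 30 bases before and the 30 bases after the start of the gene in RefSeq (GRCr8), read along the gene's strand. Capitals mark runs of at least 8 bases that are all C or T.
Eif3f, chr1:172369032-172369091, plus strand: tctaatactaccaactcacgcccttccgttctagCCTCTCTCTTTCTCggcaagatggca
Eef1g, chr1:215289785-215289844, plus strand: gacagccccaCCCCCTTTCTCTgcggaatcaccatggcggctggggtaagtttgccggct
Eif2b4, chr6:30903209-30903268, plus strand: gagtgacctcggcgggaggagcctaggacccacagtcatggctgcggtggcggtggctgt
Eif4g2, chr1:174628223-174628282, minus strand: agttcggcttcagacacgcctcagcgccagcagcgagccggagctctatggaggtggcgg
Eif3j, chr3:129438685-129438744, plus strand: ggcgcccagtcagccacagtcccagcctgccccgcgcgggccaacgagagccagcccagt
Eif3d, chr7:111432711-111432770, minus strand: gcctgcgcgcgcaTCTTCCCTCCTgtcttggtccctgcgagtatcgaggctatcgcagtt
Eif5b, chr9:47718676-47718735, plus strand: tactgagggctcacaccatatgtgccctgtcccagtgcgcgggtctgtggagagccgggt
Eif4a1, chr10:54888573-54888632, minus strand: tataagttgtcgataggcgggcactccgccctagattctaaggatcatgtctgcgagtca
The upper 4 were the higher ones and the lower 4 the lower ones. The longest run was 14 bases in Eif3f, 12 in Eef1g and 11 in Eif3d, and the other windows had none of 8 or more. A run anywhere in the window was counted, so it need not be a terminal oligopyrimidine tract. The runs in Eef1g and Eif3d ended before the annotated start, and the run in Eif3f began after it. RefSeq had a promoter for 49 of the 54 genes, and 20 of these, 40.8%, held such a run in that window. This compares with 23.2% of all 33469 RefSeq rat promoters and 21.6% of the tested genes with a promoter. A gene was counted if any of its promoters held a run, while the share of all promoters counts each singly. Only the share of tested genes is counted in the same way, though the 49 genes were not limited to tested factors. Of the genes that were lower in both WT 3 and WT 4, 12 of 30 with a promoter held a run, as did 4 of 6 genes that were higher in both.

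A pair of further motifs was searched on both strands over the 250 bases before to the 50 bases after each start. Genes were again counted by any of their promoters, and the share of all promoters counts each singly. CCGGAA, the core bound by ETS factors, lay in 24 of the 49 genes, 49.0%, against 14.95% of all promoters and 33.1% of the tested genes. CACGTG, the E-box bound by MYC, lay in 12 genes, 24.5%, against 6.42% of all promoters and 10.8% of the tested genes. For Eif4e, known in human cells as a MYC target, 1 of the 2 E-boxes in its first listed promoter is shown. The E-box of the first listed promoter is also shown for Eif4h, whose values are given with the eIF4 factors. Capitals mark the E-box.
Eif4e, chr2:229740646-229740705, plus strand: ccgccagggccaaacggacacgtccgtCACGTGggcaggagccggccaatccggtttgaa
Eif4h, chr12:27719497-27719556, plus strand: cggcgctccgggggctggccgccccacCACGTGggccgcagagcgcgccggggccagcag
A match is a description of the letters in a window, not a site of binding, and no value here links a motif to a level. CCGGAA and CACGTG cannot share a base, while a pyrimidine run can overlap CCGGAA on the opposite strand.

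With all 10 libraries, no translation factor passed the test between genotypes. Of the 54 genes, 51 were abundant enough to be tested (averaging 1 unit or more over the table's floor on its variance-stabilized log2-like scale), and 0 of them were called at a limma adjusted p under 0.05, where 1.14% of the 8431 tested genes were called, 0.261% higher and 0.878% lower in KO. No factor had all KO libraries above all WT libraries, as 1.86% of tested genes did. Limma-voom on reads recovered from the table called 0 as well. At an unadjusted p under 0.05 there were 6 of 51 factors, 11.8%, near the 13.5% of all tested genes. The mean was higher in KO for 36 factors and lower for 15, so 70.6% were higher, against 52.1% of all tested genes. The 9 listed proliferation markers were higher in KO in 9 of 9 cases, with 0 called and a median difference of 0.27. These markers summed to 6071 to 7767 normalised reads in KO libraries. In WT 3 and WT 4 they summed to 4388 to 4664, and in the other WT libraries to 5911 to 7521. The part of these markers in the values of the factors was not tested. The differences of the factors, KO minus WT on the log2-like scale, ran from -0.36 to 0.39 with a median of 0.07, where the median of all tested genes was 0.01. With WT 3 and WT 4 left out, the median was -0.04 for the factors and 0.0028 for all tested genes. In that fit 21 of 51 factors were higher in KO, and the share over all tested genes was not counted.

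**Figure D1:**
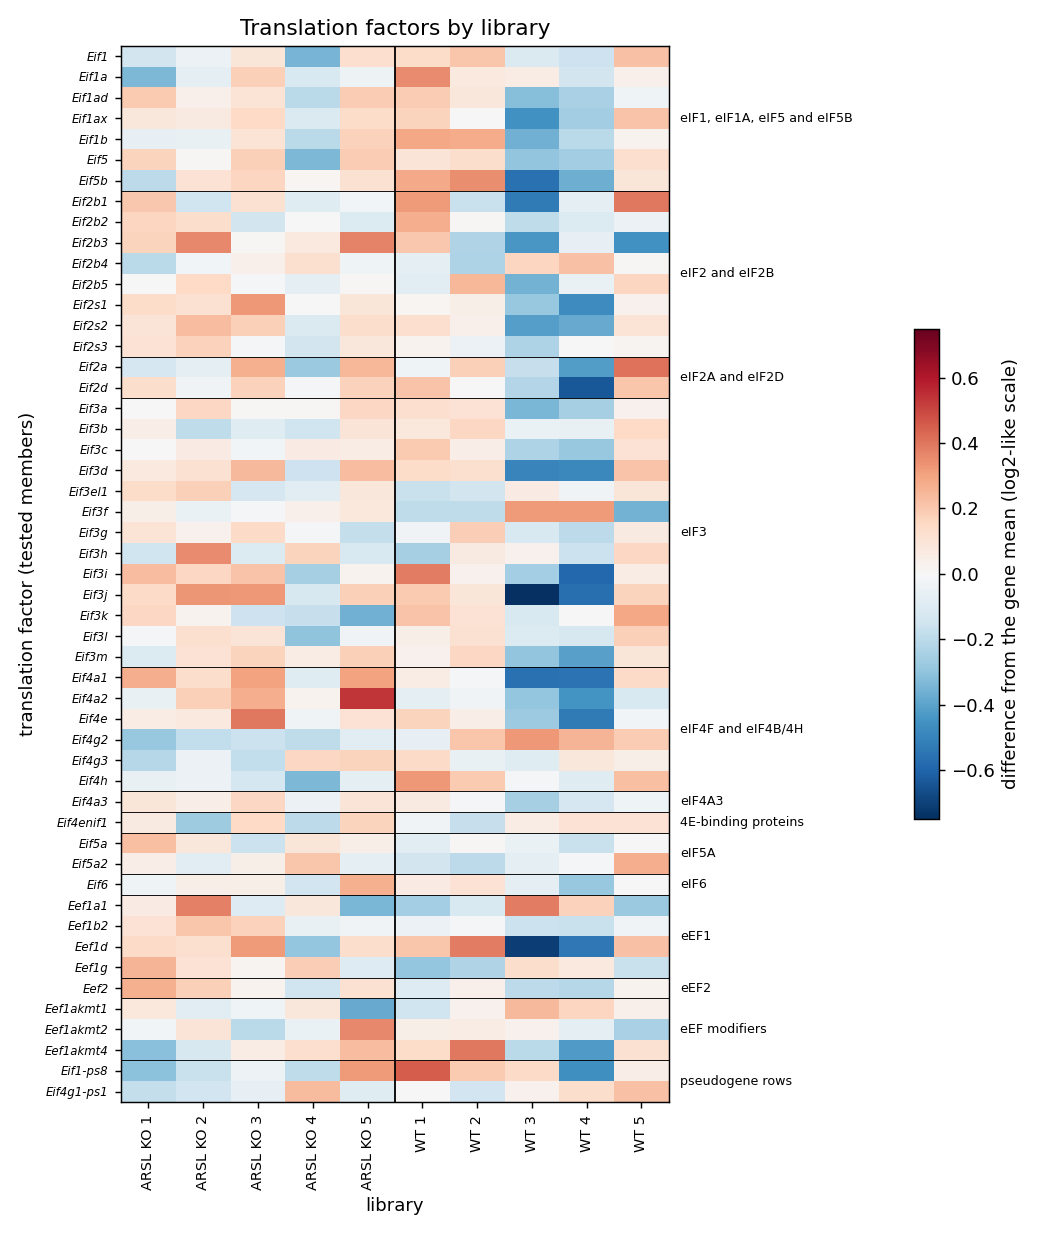
Heat map of the 51 tested translation factors (rows, grouped by complex) in the 5 ARSL KO and 5 WT libraries (columns). Colour gives the difference of a library from the gene's mean over 10 libraries on the log2-like scale. WT 3 and WT 4 are blue, below the mean, for most rows, and ARSL KO 4 is below the mean of the other KO libraries for 39 of 51 rows.

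Of the 6 factors with an unadjusted p under 0.05, 4 belong to the eIF4 group, and they ran in both directions. This group holds the genes of cap binding and unwinding and their relatives, without Eif4a3 and Eif4enif1. Of 6 tested genes of this group 0 were called. Eif4g2 encodes a relative of the eIF4G scaffold that lacks the part binding the cap protein eIF4E and serves cap-independent initiation. It had 275, 298, 303, 296 and 322 normalised reads (reads recovered from the table, scaled by size factor) in KO 1 to 5, against 328, 403, 441, 418 and 397 in WT 1 to 5. All KO values lay below all WT values, as they did for 2.40% of tested genes, and Eif4g2 was the 1 such factor. The means were 299 ± 16.9 in KO and 397 ± 42.4 in WT (SD, n = 5 each), a ratio of 0.752. KO minus WT was -0.36 on the log2-like scale, with an SE of 0.09 and a limma adjusted p of 0.0832. Over fits with 1 library left out the adjusted p ran from 0.0362 to 0.201, and Eif4g2 was called without WT 1, the lowest WT library.

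Eif4h encodes a cofactor that stimulates the helicase eIF4A. It had 682, 686, 644, 551 and 671 normalised reads in KO 1 to 5, against 898, 817, 701, 662 and 837 in WT 1 to 5. The groups overlapped through WT 4, which lay between KO libraries. The difference was -0.26 (SE 0.10; limma adjusted p = 0.282) with all libraries. With WT 3 and WT 4 left out, Eif4h fell by 0.38 (SE 0.09; limma adjusted p = 0.0398), the 1 call among the 51 factors in a fit that called 1.87% of all tested genes, 0.728% higher and 1.15% lower in KO. At an unadjusted p under 0.05 that fit had 9 of 51 factors, against 14.2% of tested genes. Leaving out ARSL KO 4 as well, Eif4h again passed, falling by 0.32 (adjusted p = 0.0234), where 3.58% of tested genes were called and 2.22% were called lower in KO. In that fit 10 of 51 factors had an unadjusted p under 0.05, against 15.8% of tested genes. The libraries left out were chosen because they stand apart in these same data. They also held the lowest Eif4h values of their groups, so these fits are not an independent test of Eif4h.

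The helicase paralogues Eif4a1 and Eif4a2 had higher means in KO but did not pass. Eif4a1 had 1036, 934, 1058, 796 and 1057 normalised reads in KO 1 to 5, against 884, 844, 563, 566 and 941 in WT 1 to 5. Its 2 lowest libraries were WT 3 and WT 4, and its difference of 0.37 (SE 0.15; limma adjusted p = 0.279) was 0.12 (SE 0.10) without them. Eif4a2 had 780.5, 923, 990, 828 and 1197 normalised reads in KO 1 to 5, against 771, 796, 658, 583 and 746 in WT 1 to 5. Only KO 1 lay within the WT range, below WT 2. The difference of Eif4a2 was 0.38 (SE 0.12; limma adjusted p = 0.170), and 0.26 (SE 0.11) without WT 3 and WT 4. Eif4e, the cap-binding protein itself, averaged 335 ± 44.2 normalised reads in KO and 280.0 ± 58.7 in WT (SD, n = 5 each), and its difference of 0.24 (SE 0.13; adjusted p = 0.445) was 0.06 without WT 3 and WT 4. Eif4g3, a scaffold paralogue, differed by -0.05 (SE 0.10).

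Within a library, the reads of Eif4g2 divided by those of Eif4a1 were 0.265, 0.319, 0.286, 0.371 and 0.304 in KO 1 to 5, against 0.371, 0.477, 0.783, 0.738 and 0.422 in WT 1 to 5. All WT ratios but that of WT 1 were above every KO ratio. Reads are not corrected for gene length, so a ratio is compared between libraries only. This pair was chosen after its values were seen, and no test is given.

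**Figure D2:**
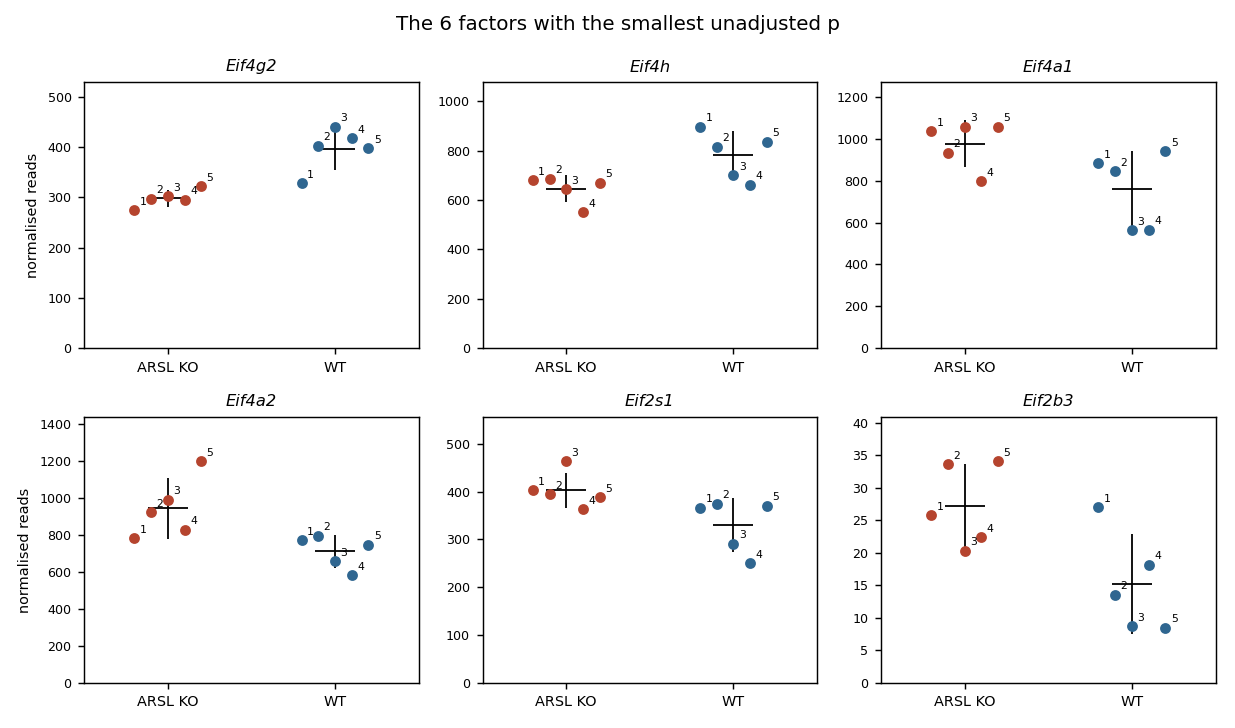
Normalised reads (y axis, from 0) of the 6 translation factors with the smallest unadjusted p in the 5 ARSL KO and 5 WT libraries. Each point is a library with its replicate number, and the black bar gives the mean ± SD. Eif4g2 is the 1 gene whose KO values, 275 to 322, all lie below its WT values, 328 to 441.

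Eif4g1, the main eIF4G scaffold, was too low to test, with 4.29 to 13.5 normalised reads in KO libraries and 4.38 to 16.9 in WT libraries. The row Eif4g1-ps1, which RefSeq lists as a pseudogene, had 251 to 349 normalised reads in KO libraries and 259 to 345 in WT libraries. No source used here says how reads that match both copies were counted, so the level of each is uncertain. The same holds for Eif1-ps8, also a pseudogene row, which differed by -0.15 (SE 0.16). Eif4a3, a helicase of the exon junction complex rather than of initiation, averaged 707 ± 37.5 normalised reads in KO and 638 ± 56.4 in WT (SD, n = 5 each; limma adjusted p = 0.504). Eif4enif1, which carries eIF4E into the nucleus, had 17.4 to 33.2 normalised reads in KO libraries and 20.3 to 30.7 in WT libraries, and differed by -0.03 (SE 0.12).

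The 8 genes of eIF2 and its exchange factor eIF2B, the step at which stress kinases slow initiation, held 0 calls, and 7 of them had a higher mean in KO (median difference 0.06). Without WT 3 and WT 4, 5 of the 8 were higher and the median was 0.03. Eif2s1, the alpha subunit that those kinases phosphorylate, had 403, 395, 463, 363 and 388 normalised reads in KO 1 to 5, against 366, 375, 291, 250.5 and 371 in WT 1 to 5. KO 4 lay within the WT range, and WT 3 and WT 4 were the lowest. The difference of Eif2s1 was 0.27 (SE 0.11; limma adjusted p = 0.316), and 0.10 (SE 0.09) without WT 3 and WT 4. Eif2s2, the beta subunit, had 3261 to 4131 normalised reads in KO libraries, against 2632 to 3840 in WT libraries, where WT 3 and WT 4 had 2632 and 2693. Its difference of 0.21 (SE 0.13; adjusted p = 0.500) was 0.02 without those libraries.

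Eif2b3, the gamma subunit of the exchange factor, had 25.8, 33.7, 20.3, 22.4 and 34.1 normalised reads in KO 1 to 5, against 27.02, 13.5, 8.75, 18.2 and 8.46 in WT 1 to 5. WT 1 lay within the KO range and the other WT libraries below it. The means were 27.3 ± 6.35 in KO and 15.2 ± 7.72 in WT (SD, n = 5 each), a ratio of 1.79. At this low level the log2-like difference, 0.39 with an SE of 0.14 and a limma adjusted p of 0.212, understates the fold. It was 0.36 (SE 0.15) without WT 3 and WT 4, close to the value with all libraries. Eif2s3, the gamma subunit of eIF2, differed by 0.09 (SE 0.09). The other exchange factor subunits differed by -0.04 for Eif2b4 and by 0.02 to 0.03 for Eif2b1, Eif2b2 and Eif2b5. Eif2d and Eif2a, which can bring a tRNA to the ribosome without eIF2, differed by 0.18 (SE 0.14) and 0.02 (SE 0.16).

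Of the 13 genes of eIF3, 0 were called and 10 had a higher mean in KO (median difference 0.06, range -0.20 to 0.34). Without WT 3 and WT 4, 4 of the 13 were higher in KO and the median was -0.05. Eif3j, a loosely attached subunit that helps mRNA recruitment, had 958, 1095, 1088, 790 and 980 normalised reads in KO 1 to 5, against 993, 922, 496, 569 and 974 in WT 1 to 5. WT 3 and WT 4 lay below every KO library, and the other WT libraries lay within the KO range. Its difference of 0.34 (SE 0.18; limma adjusted p = 0.419) was 0.02 (SE 0.10) without those libraries. Eif3a, the largest scaffold subunit, averaged 2592 ± 154 normalised reads in KO and 2379 ± 350 in WT (SD, n = 5 each), and Eif3k, a small peripheral subunit, 378 ± 57.5 in KO and 439 ± 53.0 in WT. The remaining core and peripheral subunits differed by -0.11 for Eif3b, 0.06 for Eif3c, 0.20 for Eif3d, 0.04 for Eif3f, 0.03 for Eif3g, 0.15 for Eif3i, -0.05 for Eif3l and 0.17 for Eif3m, with none past the test. Eif3k differed by -0.20 (SE 0.11) with all libraries, and by -0.30 (SE 0.11; limma adjusted p = 0.178) without WT 3 and WT 4. In the latter fit Eif3f differed by 0.26 (SE 0.09; limma adjusted p = 0.147), Eif3i by -0.08 and Eif3g by -0.06. Eif3el1, a copy of the Eif3e gene, differed by 0.07. Eif3h was listed at only 11.8 to 27.2 normalised reads in KO libraries and 9.59 to 20.1 in WT libraries, and differed by 0.06 (SE 0.13). How reads matching several places were counted is not given, so the levels of Eif3h and Eif3el1 are uncertain.

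The group of start-codon choice and subunit joining held 7 genes, with Eif1ad placed there only for its eIF1A domain. Of these, 0 were called, 4 had a higher mean in KO and 3 a lower one. Eif1, which keeps scanning ribosomes open until a start codon is found, had 1117, 1191, 1314, 958 and 1349 normalised reads in KO 1 to 5, against 1355, 1428, 1140, 1102 and 1440 in WT 1 to 5, and the groups overlapped. Its difference was -0.12 (SE 0.11; limma adjusted p = 0.662). Eif1a, a form of eIF1A, differed by -0.15 (SE 0.11; adjusted p = 0.572). Eif1ax, the other form of eIF1A, Eif1ad, a protein with an eIF1A domain, and Eif1b, a close relative of Eif1, differed by 0.13, 0.13 and -0.02. Eif5, the protein that triggers GTP hydrolysis by eIF2, differed by 0.08 (SE 0.13), and Eif5b, the GTPase that joins the ribosomal subunits, by 0.08 (SE 0.16). Without WT 3 and WT 4, 0 of these 7 genes had a higher mean in KO, and their median was -0.20.

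No elongation factor was called between genotypes. Eef2, the translocase, had 5380, 5062, 4561, 4032 and 4841 normalised reads in KO 1 to 5, against 4177, 4590, 3903, 3847 and 4555 in WT 1 to 5. Its groups overlapped, and its difference was 0.18 (SE 0.11; limma adjusted p = 0.490). The exchange factor subunit Eef1b2 averaged 2123 ± 175 normalised reads in KO and 1885 ± 99.3 in WT (SD, n = 5 each; adjusted p = 0.448). Eef1g, the subunit that holds the exchange complex together, averaged 1846 ± 178 in KO and 1618 ± 217 in WT. Its difference was 0.19 (SE 0.11; limma adjusted p = 0.472), and 0.32 (SE 0.10; adjusted p = 0.0978) without WT 3 and WT 4. Eef1d, another subunit of that complex, differed by 0.17 (SE 0.20), and by -0.19 (SE 0.12) without WT 3 and WT 4. Eif5a, which carries the amino acid hypusine and helps ribosomes through difficult peptide bonds, averaged 1130 ± 111 in KO and 1037 ± 53.8 in WT, its paralogue Eif5a2 differed by 0.06 (SE 0.11), and Eif6, which keeps the large ribosomal subunit from joining early, averaged 273 ± 33.6 in KO and 258 ± 30.6 in WT.

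Eef1a1, which encodes the factor that delivers tRNAs, was listed at 6.28 to 24.98 normalised reads in KO libraries and 7.40 to 25.2 in WT libraries, and differed by 0.04 (SE 0.16). Mammalian genomes carry many near-identical copies of this gene, and how reads matching several copies were counted is not given, so this level is uncertain. Eef2k, the kinase that switches eEF2 off, was too low to test, with up to 8.78 normalised reads in KO libraries and up to 10.5 in WT libraries. Eef2kmt, a methyltransferase of eEF2, was also too low, with 3.69 to 20.4 in KO libraries and 1.09 to 11.6 in WT libraries. The methyltransferases of eEF1A differed by -0.13 (SE 0.11) for Eef1akmt1, 0.07 for Eef1akmt2 and -0.01 for Eef1akmt4.

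**Figure D3:**
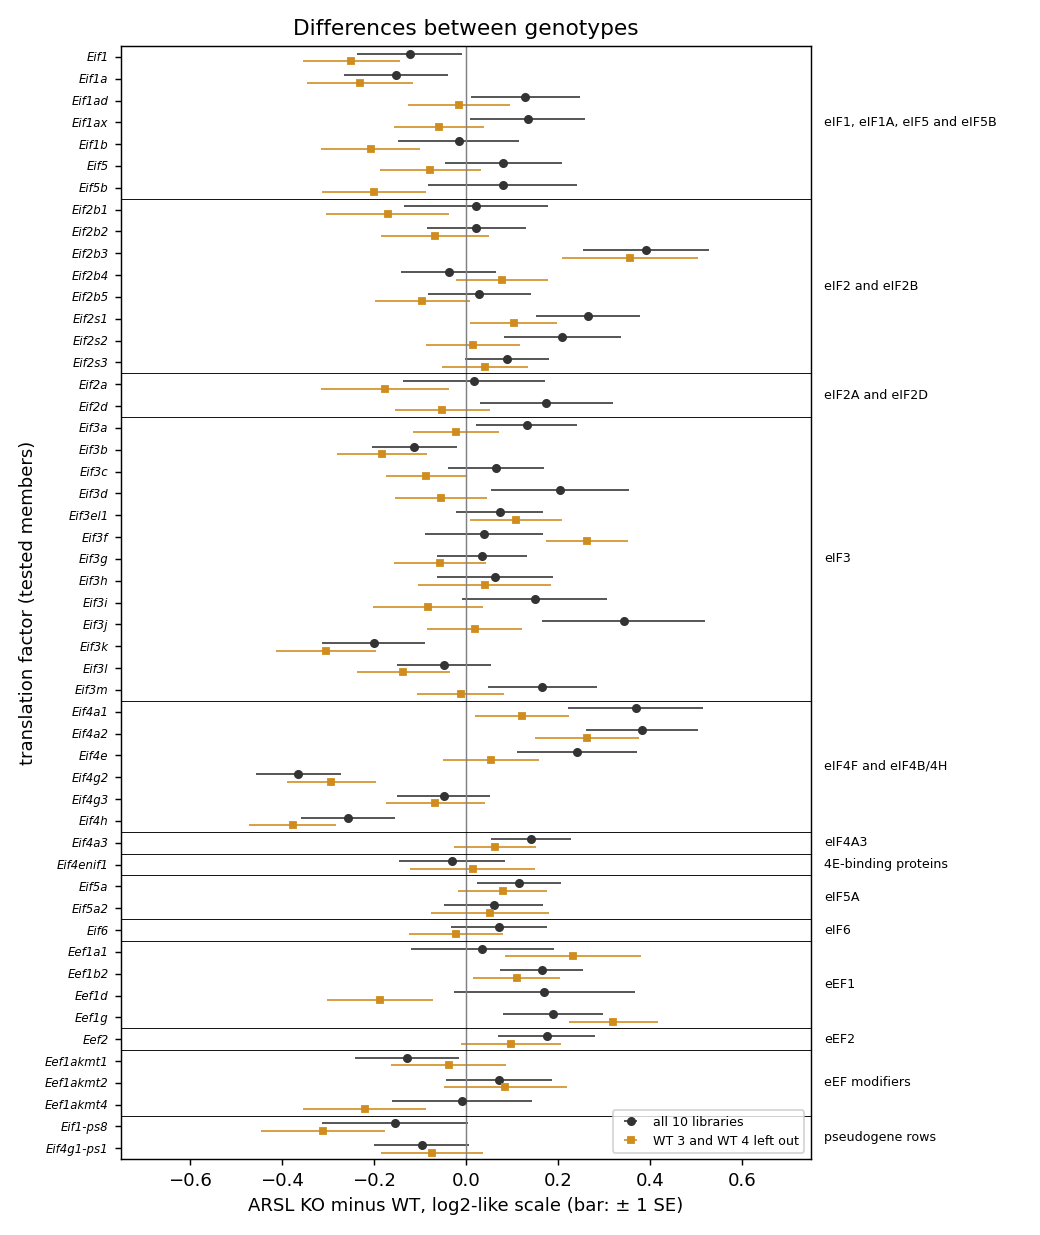
Difference ARSL KO minus WT on the log2-like scale (x axis) for each of the 51 tested factors, grouped by complex. Black points use all 10 libraries and orange squares leave out WT 3 and WT 4, with bars of ± 1 SE. Eif3j is at 0.34 with all libraries and 0.02 without WT 3 and WT 4, Eif2b3 at 0.39 and 0.36, and Eif4h at -0.26 and -0.38.

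Translation factors took a smaller share of reads in WT 3 and WT 4 than in any other library. All members together took 1.63, 1.64, 1.66, 1.40 and 1.66% of the reads in KO 1 to 5, against 1.56, 1.57, 1.24, 1.24 and 1.56% in WT 1 to 5. ARSL KO 4 had the next lowest share. The labels give no difference between WT 3 and WT 4 and the other WT cultures. That these libraries stand apart was known from earlier results on these data, so the values that follow are a description with no test.

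In 31 of 51 tested factors, 60.8%, WT 3 and WT 4 both lay below WT 1, WT 2 and WT 5, where this held for 29.0% of all tested genes. In 6 factors, 11.8%, both lay above, against 27.2% of all tested genes. The median difference of WT 3 and WT 4 from the other WT libraries was -0.26 on the log2-like scale over the 51 factors and -0.01 over all tested genes. By complex, both were below in 6 of 7 genes of the start-codon group and 10 of 13 eIF3 genes. They were below in 4 of 6 tested genes of the eIF4 group and 3 of 8 genes of eIF2 and eIF2B. The 2 eIF5A genes and the 2 pseudogene rows overlapped. In ARSL KO 4 the median difference from the other KO libraries was -0.14 over the factors and 0.0035 over all tested genes. There 39 of 51 factors were lower, and the share over all tested genes was not counted.

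Proliferation markers and chondrocyte markers moved with this split. Over all tested genes, WT 3 and WT 4 were both lower than the other WT libraries in 29.0% and both higher in 27.2%. The 9 listed proliferation markers, among them Mki67 and Top2a, were lower in both WT 3 and WT 4 in 9 of 9 cases, and summed to 4388 to 4664 normalised reads there, against 5911 to 7521 in the other WT libraries. The 10 listed chondrocyte markers were higher in both in 10 of 10 cases, and summed to 63497 to 64215 normalised reads, against 39752 to 41990. In ARSL KO 4 the proliferation markers summed to 6071, against 6660 to 7767 in the other KO libraries, and the chondrocyte markers to 50196, against 38880 to 47928. The 3 fibroblast markers summed to 136 to 147 in WT 3 and WT 4, against 55.8 to 81.3 in the other WT libraries. The part of these markers in the values of the translation factors was not tested.

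**Figure D4:**
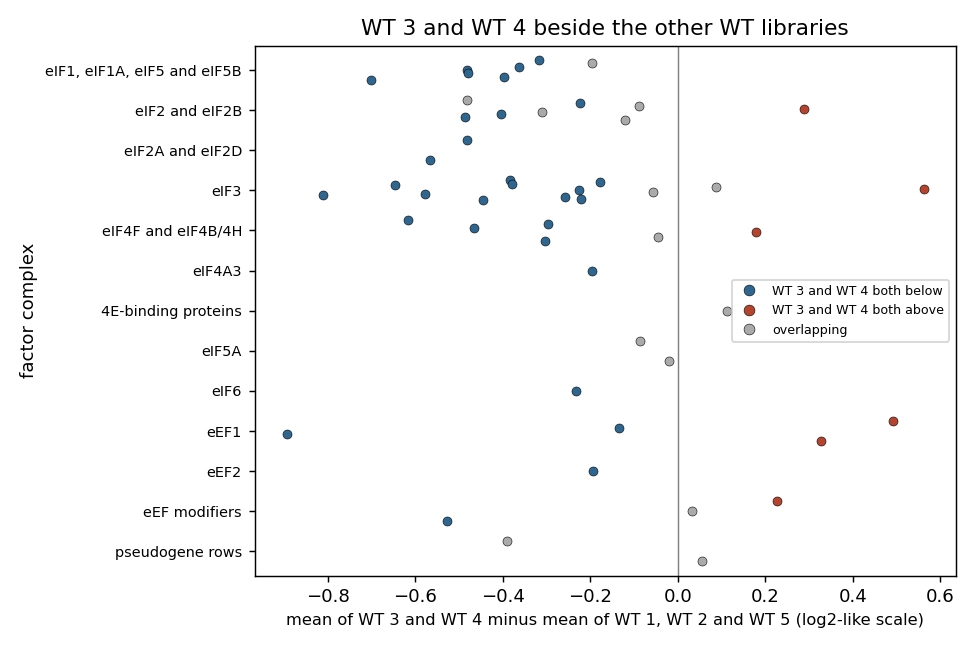
Mean of WT 3 and WT 4 minus the mean of WT 1, WT 2 and WT 5 on the log2-like scale (x axis) for the 51 tested factors by complex. Blue points have both WT 3 and WT 4 below the other WT libraries (31 genes), red points have both above (6 genes) and grey points overlap (14 genes).

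Some subunits of the same complex lay on opposite sides of the other WT libraries in WT 3 and WT 4. Eef1d, an exchange factor subunit of eEF1B, had 1146 and 1296 normalised reads in WT 3 and WT 4, against 2204, 2489 and 2222 in WT 1, WT 2 and WT 5, a ratio of means of 0.530. Its partner Eef1g had 1885 and 1812 in WT 3 and WT 4, against 1401, 1464 and 1530, a ratio of 1.26. In WT 3 and WT 4 Eef1d lay below, and Eef1g above, each of the other WT libraries. The third subunit, Eef1b2, had 1783 and 1772, against 1934, 1975 and 1962. The reads of Eef1d divided by those of Eef1g were 0.608 and 0.716 in WT 3 and WT 4, against 1.57, 1.70 and 1.45 in the other WT libraries. In KO 1 to 5 this ratio was 1.02, 1.12, 1.36, 0.787 and 1.30, lowest in KO 4.

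In eIF3, Eif3d, a subunit that can bind caps of selected mRNAs, had 829.3 and 835 normalised reads in WT 3 and WT 4, against 1308, 1290 and 1384 in WT 1, WT 2 and WT 5. Eif3f, a core subunit of the complex, had 865 and 865 in WT 3 and WT 4, against 595, 597 and 529, and KO libraries lay between, at 663 to 728. The reads of Eif3d divided by those of Eif3f were 0.958 and 0.965 in WT 3 and WT 4, against 2.20, 2.16 and 2.62 in the other WT libraries. In KO libraries the ratio was 1.501 to 2.08, with KO 4 the lowest. Eif3j was at a ratio of 0.553 between WT 3 and WT 4 and the other WT libraries, the lowest among eIF3 genes that were tested.

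Eif5b had 63.5 and 77.4 normalised reads in WT 3 and WT 4, against 142, 150 and 119 in WT 1, WT 2 and WT 5. Both were below, at a ratio of 0.514. Eif2b4, the delta subunit of the exchange factor, was among the few that were higher, at 327 and 343 in WT 3 and WT 4, against 273, 240 and 291. Eif4g2 was higher in both as well, at a ratio of 1.14, and Eef1akmt1 at 1.25. Eef1a1 was higher at 25.2 and 18.2, against 7.84, 10.6 and 7.40, with the uncertainty given for its reads.

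**Figure D5:**
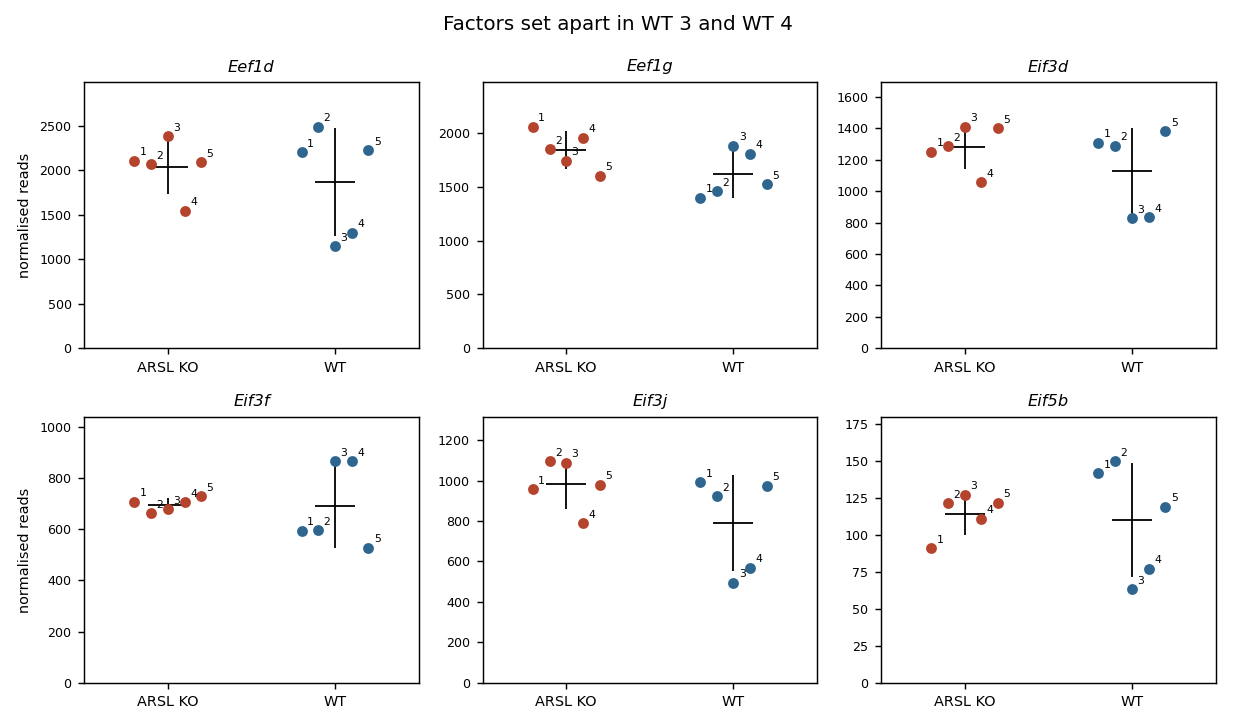
Normalised reads (y axis, from 0) of 6 translation factors set apart in WT 3 and WT 4, in the 5 ARSL KO and 5 WT libraries. Each point is a library with its replicate number, and the black bar gives the mean ± SD. WT 3 and WT 4 are the lowest WT libraries for Eef1d, Eif3d, Eif3j and Eif5b and the highest for Eef1g and Eif3f.

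Other genes of translation were counted in 7 lists by function. None of these lists held a call between genotypes in the limma fit, which called 1.14% of tested genes. Over all tested genes, WT 3 and WT 4 were both below the other WT libraries in 29.0% and both above in 27.2%. In termination, recycling and ribosome rescue, 0 of 9 passed (median difference 0.06), and WT 3 and WT 4 were both below the other WT libraries in 6 and both above in 0. Among initiation helpers and poly(A)-binding proteins, 0 of 10 passed (median 0.07), and WT 3 and WT 4 were both below in 5 and both above in 3. Paip2, which inhibits poly(A)-binding protein, averaged 807 ± 108 normalised reads in KO and 1155 ± 227 in WT (SD, n = 5 each; limma adjusted p = 0.109), with all KO libraries below all WT libraries. All KO libraries lay below all WT libraries in 2.40% of tested genes. Paip2 passed once WT 3, WT 4 and also ARSL KO 4 were removed, falling by 0.35 (limma adjusted p = 0.0311). That fit called 3.58% of tested genes, and 2.22% were called lower in KO. The libraries left out were chosen from these same data, so it is not an independent test. Among 21 cytosolic tRNA synthetase genes, 0 passed (median 0.10), and WT 3 and WT 4 were both below in 11 and both above in 2. Lars1, which charges leucine tRNA, averaged 345 ± 28.3 in KO and 441 ± 40.5 in WT (limma adjusted p = 0.125). Its KO libraries again all lay below its WT libraries, as in 2.40% of tested genes.

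Among 8 eIF2 alpha kinases, phosphatase subunits and their regulators, 0 passed (median 0.04). WT 3 and WT 4 were both below in 2 and both above in 4, against 29.0% and 27.2% of all tested genes. The kinase Eif2ak3, which senses stress in the endoplasmic reticulum, averaged 105 ± 18.4 normalised reads in KO and 81.8 ± 20.1 in WT (SD, n = 5 each; limma adjusted p = 0.396). In the mTORC1 and cap signalling list, 0 of 12 passed (median -0.05), with WT 3 and WT 4 both below in 3 and both above in 3. The member with the smallest p was Mknk1, an eIF4E kinase, at 34.5 ± 3.79 in KO and 47.4 ± 14.8 in WT (adjusted p = 0.458). Of 8 mitochondrial translation factors 0 passed (median 0.16), and WT 3 and WT 4 were both below in 2 and both above in 0. Tsfm, which reloads the mitochondrial elongation factor, averaged 33.6 ± 1.96 in KO and 21.2 ± 3.09 in WT (limma adjusted p = 0.118). All its KO libraries, at 31.1 to 36.0, lay above all its WT libraries, at 16.5 to 24.4, as in 1.86% of tested genes. Of the 2 enzymes that make hypusine on eIF5A, 0 passed, and WT 3 and WT 4 were both below in 1 and both above in 0. Dohh averaged 284 ± 38.8 in KO and 249.96 ± 34.5 in WT. Mcts2, of the recycling list, averaged 567 ± 68.9 in KO and 488 ± 39.8 in WT (adjusted p = 0.397).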

How the data were processed

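RNA of 5 ARSL KO and 5 WT libraries was sequenced with a digital mRNA-seq service per the labels. The authors deposited log2-like values, variance-stabilized and normalized for library size per the file name; the submitters' processing notes name rn6, HTSeq, STAR 2.7.11a and bcl2fastq. No source used here gives the transforming tool, gene filter, strand setting or handling of reads matching several places. The floor of the table, 4.42, is that of a count of 0, and inverting the transformation gave whole reads in every library (largest departure 1.6e-09 reads). Totals cover the listed genes only, which had at least 30 reads each over the 10 libraries. No pair of libraries within a group agreed within sampling noise (lowest chi-square per degree of freedom 1.85), and all 10 were kept as separate samples.

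The genotype comparison used limma 3.58.1 under R 4.3.3 (empirical Bayes, intensity trend, two-sided), with Benjamini-Hochberg adjustment over 8431 genes that averaged 1 unit or more over the floor, or 10.7 normalised reads. The fit was tested on simulated data. Calls have an adjusted p under 0.05. Genes named are called factors, the 8 with the smallest p, per complex the most reads and the largest difference, the 5 highest and 5 lowest in WT 3 and WT 4 against the other WT libraries, and, from each other list, the smallest p; further factors were named after their values were seen, to account for every complex. The members, complexes and lists were chosen with earlier results of these data known. Symbols were matched to RefSeq (GRCr8) promoters. The alternatives are a replicate block, quantile normalization, median centring, dropping the filter, raising it to 2 units, dropping the intensity trend, limma-voom on recovered reads, each library left out, and the libraries that stand apart left out. Figures were drawn with matplotlib 3.10.9.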

Additional observations from a re-analysis of the deposited data

Results flagged for a closer look

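ARSL KO 4 lay apart from the other KO libraries in the share of reads taken by translation factors, at 1.40% against 1.63 to 1.66%. It also lay apart for Eif4h, at 9.21 on the log2-like scale (551 normalised reads) against 9.42 to 9.51. Both gaps, 0.886 and 0.710 of the group's range, were above Dixon's 95% critical value of 0.710 for 5 samples, the second only just. In all 56 groups of 5 libraries were looked at, 2 were set apart, and chance gives about 1 in 20.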

How the results depend on the processing

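Over 19 alternatives, 481 of 510 values of the 27 named factors kept their direction and their side of the threshold. The difference cannot change under the replicate block, the other filters or the fit without an intensity trend, so its sign was fixed there. All 27 were uncalled with all libraries, so keeping their side meant staying uncalled. The count of translation factors called stayed at 0 under the replicate block, both other filters, both normalizations, no intensity trend and limma-voom. It was 1 (Eif4h) with WT 3 and WT 4 left out and 1 (Eif4h) with ARSL KO 4 left out too. Those libraries were chosen because they stand apart in these same data. Over the 10 fits without 1 library the count was 0 to 1 (Eif4g2, without WT 1). Genes called numbered 96 with all libraries, 60 with the stricter filter, which tests fewer genes, 157 without WT 3 and WT 4, 300 without those and ARSL KO 4, and 33 to 102 without 1 library. The factors' median difference was -0.0372 without WT 3 and WT 4, -0.00056 with ARSL KO 4 left out too, and 0.0307 to 0.109 without 1 library, against 0.0723 with all.

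Signs turned, with no value called, when WT 3 and WT 4 were left out for Eif4enif1 (0.0145), Eif2d (-0.0518), Eif3a (-0.0211), Eif6 (-0.0212), Eef1d (-0.187), Eif5b (-0.200), Eif3d (-0.0546) and Eif2b4 (0.0782). With ARSL KO 4 left out too they turned for Eif4enif1 (0.0599), Eif2d (-0.0269), Eif3a (-0.00619), Eef1d (-0.0922), Eif5b (-0.194) and Eif2b4 (0.0433). The cause was not tested. Over the fits without 1 library, signs turned for Eef1a1 (-0.0547 to 0.136), Eif3f (-0.0439 to 0.124), Eif5b (-0.0493 to 0.177), Eif2b4 (-0.0993 to 0.0138) and Eif4enif1 (-0.0768 to 0.0328).

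Replicate numbers did not pair the libraries: deviations of same-numbered libraries correlated at -0.29 to 0.59, and 4 of 10 libraries correlated best with their own number. With the replicate block 136 genes and 0 translation factors were called. Precision is limited for factors under about 30 normalised reads, such as Eif2b3, Eif3h and Eef1a1. Depths cover listed genes only.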
